A study of Mus musculus with 12 samples.

Results

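The genes described here encode the subunits of the mitochondrial respiratory chain, taken as the 98 protein-coding gene entries (97 distinct symbols) among the 54532 entries of the count table whose mouse symbol matched a naming rule. The rule took the mitochondrially encoded mt-Nd, mt-Co, mt-Cytb and mt-Atp genes, symbols that start with Ndufa, Ndufb, Ndufc, Ndufs or Ndufv and a digit, with Uqcr, with Cox4 to Cox8 or with Atp5, and the 4 genes Sdha, Sdhb, Sdhc and Sdhd, and used no measured value. It matched 110 symbols, of which 12 pseudogene or non-coding entries were left out, and it gave 85 nuclear and 13 mitochondrially encoded members. Poly(A)-selected RNA of whole mouse lung was sequenced in 4 groups of 3 libraries. The control genotype, called WT below, was Cc10-Cre, and the other, called CKO, was Cc10-Cre;Rhoafl/fl, in which the labels give the genotype as a conditional RhoA knockout. Each genotype received either PBS or an agent that the labels give only as CRE, which is not the Cre recombinase. All 4 groups carry the Cre transgene under the Cc10 (Scgb1a1) promoter, which is active in club cells, the secretory cells of the airway lining. Where the floxed alleles were recombined was not measured here. The series title names allergic airway inflammation as its subject. The labels do not say whether a library comes from 1 animal or a pool, or whether replicates are separate animals, so p-values measure only the spread between these libraries.

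The respiratory chain sits in the inner mitochondrial membrane. Complexes I (NADH dehydrogenase) and II (succinate dehydrogenase) pass electrons to ubiquinone, complex III passes them to cytochrome c, complex IV (cytochrome c oxidase) reduces oxygen, and complex V (ATP synthase) uses the proton gradient to make ATP. Complexes I, III, IV and V join subunits made from nuclear genes with subunits made from mitochondrial DNA, while complex II is wholly nuclear. Several complex IV subunits exist as paralogues, with a widely used form and a form known from heart and skeletal muscle or, for Cox4i2, from lung and vascular cells.

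The libraries held between 16250674 and 21559210 counts. Levels are given as CPM, the counts scaled to library size with edgeR's TMM factors. A gene was called changed when edgeR's quasi-likelihood test gave a Benjamini-Hochberg adjusted p below 0.05 over all 17473 tested genes. Of the 98 members, 95 were tested (82 nuclear, 13 mitochondrial). The testis form Cox8c and a readthrough entry of Atp5o had no counts, and Cox7b2 had 11 counts in all 12 libraries. Rhoa itself was at 470.8 to 487.3 CPM in WT_PBS and 397.2 to 480.6 CPM in CKO_PBS. Under CRE it was at 520.4 to 530.3 CPM in WT and at 464.6, 543.7 and 494.9 CPM in CKO replicates 1, 2 and 3. The value of CKO_CRE replicate 2 was the highest of all 12 libraries, and replicates 1 and 3 were below every WT_CRE library. Rhoa was not called between the genotypes (log2 difference -0.10 ± 0.10 SE under PBS and -0.07 ± 0.10 under CRE), so in whole lung it does not check the genotype labels. In CKO_CRE, replicate 2 stood apart from replicates 1 and 3 in many of the values that follow, and the main results that rest on that group are given with and without it. It was singled out on those same values, so p-values and counts of calls without it do not test the genotypes. Counts of Y-linked genes and Xist placed all 3 WT_PBS libraries as male and replicates 2 and 3 of both CRE groups and replicate 2 of CKO_PBS as female, so sex and treatment are partly confounded.

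Under CRE the summed level of the nuclear-encoded members was higher in every library than under PBS, while that of the mitochondrially encoded members was not. The nuclear members summed to 5425, 5407 and 5368 CPM in the 3 WT_PBS libraries and to 8712, 8422 and 7638 CPM in the 3 WT_CRE libraries. They summed to 5309, 5226 and 5253 CPM in CKO_PBS and to 6030, 8769 and 6549 CPM in CKO_CRE. All 6 CRE libraries were above all 6 PBS libraries, and CKO_CRE replicates 1 and 3 were below every WT_CRE library. The 13 mitochondrially encoded members summed to 14110 ± 380 CPM (SD, n = 3) in WT_PBS and 12840 ± 814 CPM in WT_CRE, which is 1.42% and 1.26% of all counts. In the CKO groups they summed to 13300 ± 136 CPM under PBS and 11420 ± 495 CPM under CRE. The ratio of the nuclear to the mitochondrial sum was 0.38 to 0.40 in the 6 PBS libraries. It was 0.60 to 0.70 in WT_CRE and 0.51, 0.81 and 0.57 in CKO_CRE. Among the mitochondrial members mt-Nd3, mt-Nd4l, mt-Co2, mt-Co3, mt-Atp6 and mt-Atp8 had low values that are uncertain, as given below. The mitochondrial sum, its share of counts and the ratio therefore rest on the others.

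**Figure D1:**
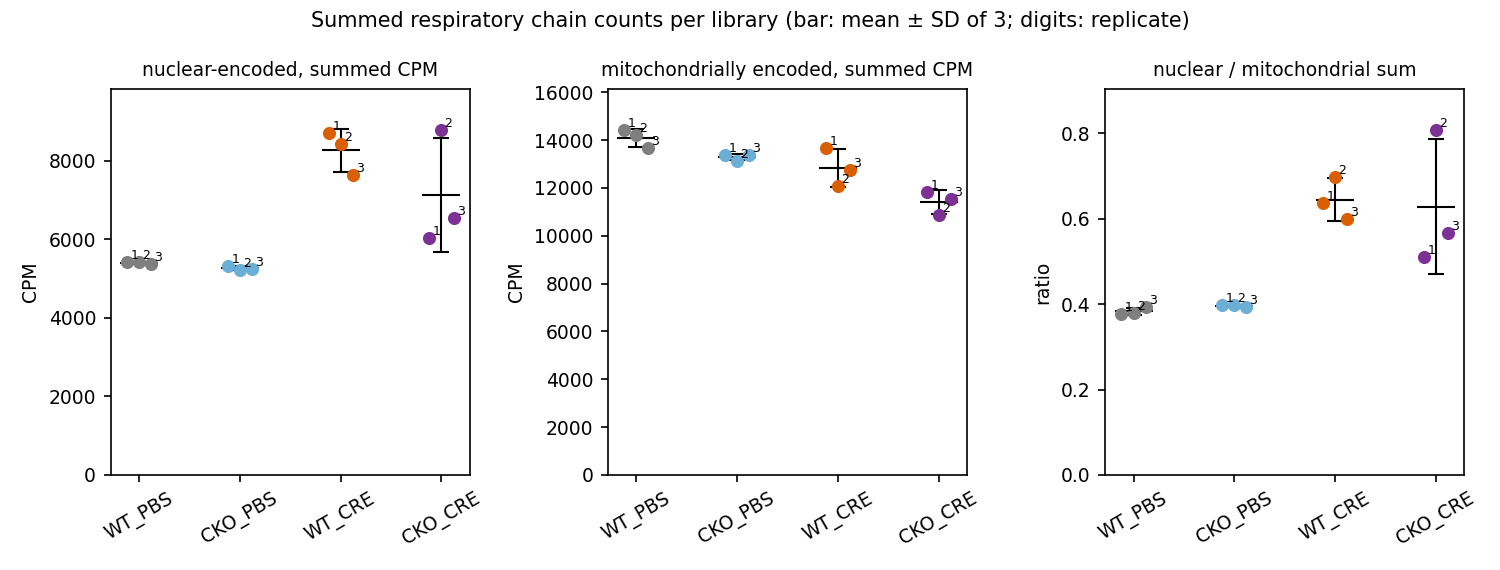
Summed CPM of the nuclear-encoded members (left), of the mitochondrially encoded members (middle) and the ratio of the sums (right) in each library, with the group on the x axis. Points are libraries numbered by replicate, and bars are the mean ± SD of 3. The middle and right panels include mitochondrially encoded members with low and uncertain values. The 6 CRE libraries lie at 6030 to 8769 CPM in the left panel, above the 5226 to 5425 CPM of the 6 PBS libraries, and CKO_CRE replicate 2 is the highest of all.

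In the Cc10-Cre control lung, CRE was compared with PBS. Of the 82 tested nuclear members, 70 rose and 4 fell; of the 13 mitochondrially encoded members none rose and 3 fell, and 10 were not called. Over all tested genes 28.6% were called higher and 28.4% lower, against 73.7% and 7.37% of the 95 members. The groups did not overlap for 75 members that were higher and 8 that were lower under CRE, as was so for 34.4% and 34.1% of all tested genes. The median log2 fold change was 0.62 over the nuclear members, -0.02 over the mitochondrial members and 0.01 over all tested genes. The risers were spread over all 5 complexes, with 33 of 35 nuclear subunits of complex I, 3 of 4 of complex II, 7 of 8 of complex III, 11 of 18 of complex IV and 16 of 17 of complex V. The 4 nuclear members that fell were the muscle-type paralogues Cox6a2, Cox7a1 and Cox8b and the Ndufa4 paralogue Ndufa4l2, all counted here with complex IV. With sex as a covariate 65 members rose and 4 fell in WT, against 22.9% and 22.5% of all genes, and the falls of Cox6a2, Cox7a1 and Ndufa4l2 were no longer called. Because whole lung was sequenced, more cells of a kind that is rich in these transcripts and more RNA per cell cannot be told apart.

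**Figure D2:**
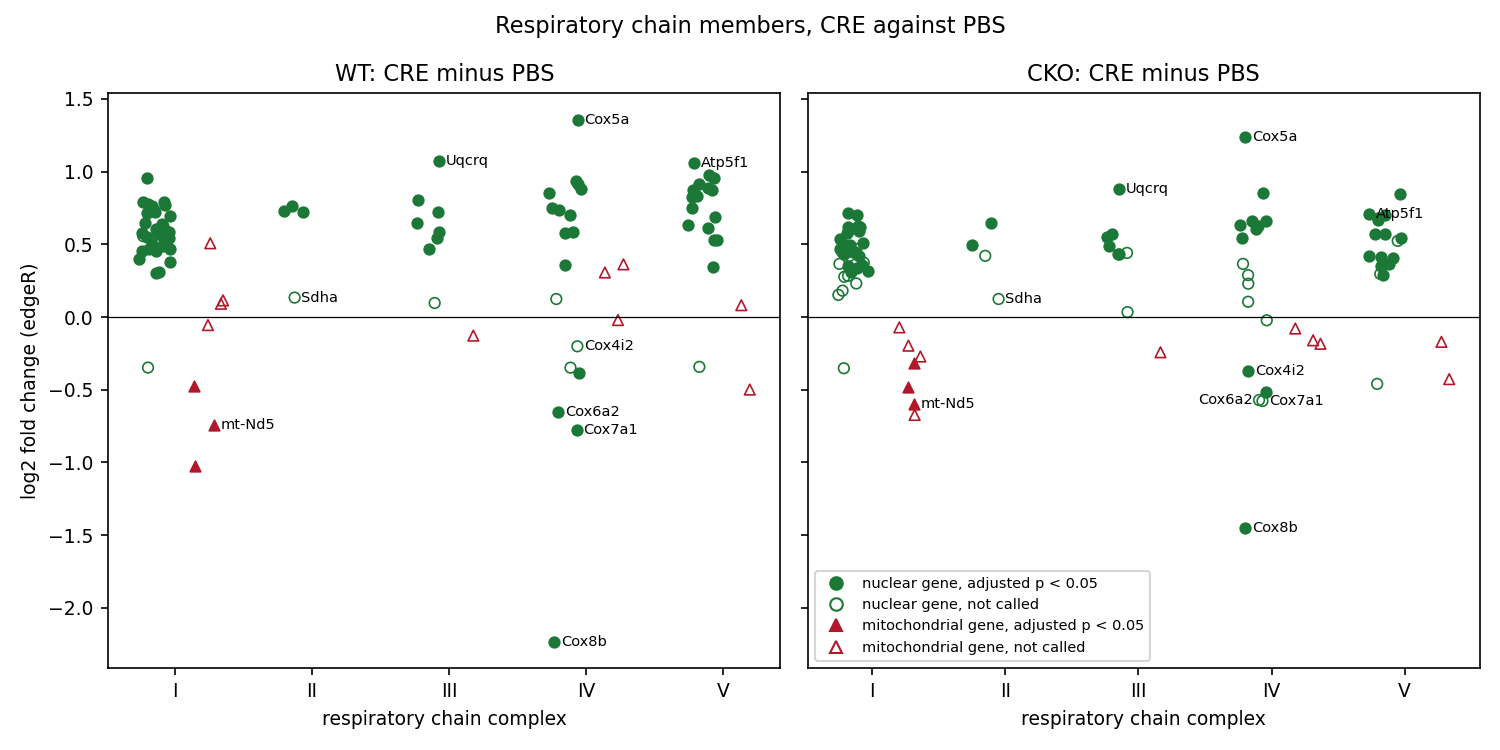
Log2 fold change of CRE against PBS for each of the 95 tested members (y axis) by respiratory chain complex (x axis), in WT (left) and CKO (right). Circles are nuclear genes, triangles mitochondrially encoded genes, and filled symbols have an adjusted p below 0.05. In WT the nuclear members centre on a median of 0.62 while the mitochondrial members centre on -0.02, and Cox8b lies lowest at -2.23.

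Short genes rose more often under CRE in these libraries. The nuclear members had a median exon length of 1559 bases, against 3909 bases over all tested genes. Among the 2430 tested genes that were 1559 bases or shorter, 36.0% were called higher in WT, with a median log2 fold change of 0.45, while 85.4% of the nuclear members were called higher. Among the 4558 tested genes at or above the members' median level, 30.4% were called higher. The part of transcript length in the members' rise was not tested. Reads could also be shared with other loci. Of the 98 members, 21 have a copy elsewhere in the genome that matches at 98% or more over 150 bases, 13 share bases with a gene of the same strand, and 29 with a gene of the other strand. Among the nuclear members the copies' counts reached at most 6.84% of their parent's, for BC002163, the copy of Ndufs5. The 45 tested members with neither a copy nor an overlap gave 38 higher and 2 lower in WT.

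Promoter sequence was looked up for the nuclear members in RefSeq's table for GRCm38.p6 (250 bases before to 50 bases after each start), and 69 of 85 members matched. Exact matches on either strand were sought for the sequences bound by factors known to drive nuclear respiratory genes. The palindromic NRF1 motif, whose letters are the first capitals in the Cox6a1 line below, was in 5 members (7.25%, against 0.971% of all 32851 promoters in the table), the ETS-family motif CCGGAAG, read by GABP, was in 16 (23.2% against 8.86%), and the ERR motif TCAAGGTCA was in 2 (2.90% against 0.423%). None of these motifs holds another. The median GC content was 57.3% in the members' windows and 52.7% in all windows. In WT the median log2 fold change was 0.75 for the members with the ETS motif and 0.56 for those without it, and 0.79 and 0.59 with and without the NRF1 motif. In all, 20 of 69 members held at least 1 of the motifs. The 200 bases before the start are printed for 5 members that the results below turn on, 5′ to 3′ on the gene's own strand, with motif matches in capitals on whichever strand they lie:
Sdhd (chr9:50603850-50604049, minus strand, ETS motif): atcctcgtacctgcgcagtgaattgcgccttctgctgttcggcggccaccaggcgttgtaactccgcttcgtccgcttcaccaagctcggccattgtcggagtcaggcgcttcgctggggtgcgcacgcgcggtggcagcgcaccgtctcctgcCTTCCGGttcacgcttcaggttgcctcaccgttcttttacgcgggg
Cox6a1 (chr5:115348959-115349158, minus strand, NRF1 and ETS motifs): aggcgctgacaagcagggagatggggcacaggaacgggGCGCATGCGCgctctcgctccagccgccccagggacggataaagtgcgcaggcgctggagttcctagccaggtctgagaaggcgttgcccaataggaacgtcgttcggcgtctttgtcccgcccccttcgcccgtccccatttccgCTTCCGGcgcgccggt
Atp5g3 (chr2:73911327-73911526, minus strand, ERR motif): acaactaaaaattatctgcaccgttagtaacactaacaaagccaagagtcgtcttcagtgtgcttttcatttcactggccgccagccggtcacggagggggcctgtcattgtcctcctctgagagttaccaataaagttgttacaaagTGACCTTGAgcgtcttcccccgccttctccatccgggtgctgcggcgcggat
Cox5a (chr9:57521032-57521231, plus strand, no match): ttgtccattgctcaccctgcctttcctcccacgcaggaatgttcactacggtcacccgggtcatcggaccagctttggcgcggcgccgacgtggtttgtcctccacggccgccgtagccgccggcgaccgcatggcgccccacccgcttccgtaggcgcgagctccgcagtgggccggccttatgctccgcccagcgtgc
Cox8b (chr7:140900447-140900646, minus strand, no match): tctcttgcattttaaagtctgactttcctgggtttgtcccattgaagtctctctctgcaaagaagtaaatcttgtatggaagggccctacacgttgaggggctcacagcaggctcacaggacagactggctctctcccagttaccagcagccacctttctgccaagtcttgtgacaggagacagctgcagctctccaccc
The window of Sdhd also holds the ERR motif, from base 37 after the start and so outside the printed bases. Sdhd, Cox6a1, Atp5g3 and Cox5a rose in WT and Cox8b fell. Cox5a had the largest rise of all members although none of the 3 motifs lies in its window. A match is only a match of letters, and its absence says nothing of a factor's binding.

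Complex I takes electrons from NADH and is the largest complex of the chain. The flavin-carrying subunit Ndufv1, where NADH is oxidised, was at 71.8, 67.0 and 70.5 CPM in WT_PBS and at 93.3, 86.3 and 79.9 CPM in WT_CRE (log2 fold change 0.31 ± 0.09 SE, adjusted p = 0.0143). The 75-kDa iron-sulphur subunit Ndufs1 rose by a log2 of 0.38 ± 0.08. The largest rise in the complex was that of Ndufb7, an accessory subunit, from 36.6, 41.4 and 37.4 CPM to 77.4, 83.5 and 62.6 CPM (0.95 ± 0.17). Ndufb5 followed with 27.3, 30.1 and 32.8 CPM under PBS and 52.93, 49.95 and 46.26 CPM under CRE (0.73 ± 0.12), and its gene overlaps Mrpl47 on the opposite strand. No WT_CRE library overlapped a WT_PBS library for these 4 genes. The 33 nuclear subunits that rose spanned log2 values from 0.30 to 0.95. Not called were Ndufs5 (0.56 ± 0.25, adjusted p = 0.0707), although its groups did not overlap, and Ndufb2 (-0.35 ± 0.19, adjusted p = 0.13), which overlaps Gm42420 on the same strand. Leaving out 1 library ended the call of Ndufv1 without WT_CRE replicate 1 (adjusted p = 0.0689) or WT_PBS replicate 2 (0.0586).

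Of complex II, which also belongs to the citric acid cycle, 3 of 4 subunits rose. Its catalytic flavoprotein Sdha was at 239, 228 and 219 CPM in WT_PBS and at 253, 252 and 247 CPM in WT_CRE (0.13 ± 0.08, adjusted p = 0.15). limma-voom with quality weights called Sdha higher in WT (0.15, adjusted p = 0.0198) and in CKO (0.15, adjusted p = 0.0472). The iron-sulphur subunit Sdhb rose from 70.5, 66.4 and 64.6 CPM to 115.9, 114.7 and 103.5 CPM (0.73 ± 0.13, adjusted p = 0.000543). The membrane anchor Sdhc rose from 65.9, 69.8 and 66.1 CPM to 122.6, 109.4 and 101.3 CPM (0.72 ± 0.16), and the other anchor, Sdhd, from 62.0, 64.0 and 62.3 CPM to 115.9, 106.7 and 97.5 CPM (0.77 ± 0.13). The complex holds 1 copy of each of the 4 subunits. The CPM ratio of Sdhb to Sdha was 0.294 ± 0.002 (SD, n = 3) in WT_PBS and 0.444 ± 0.022 in WT_CRE, and that of Sdhd to Sdha was 0.275 ± 0.014 and 0.426 ± 0.032. In CKO the ratio of Sdhb to Sdha was 0.295 ± 0.013 under PBS and 0.374, 0.507 and 0.382 under CRE.

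In complex III, 7 of 8 nuclear members rose. Uqcrq, a small subunit beside cytochrome b, was at 48.6, 51.2 and 43.7 CPM in WT_PBS and at 106.5, 110.3 and 84.5 CPM in WT_CRE (1.07 ± 0.17, adjusted p = 0.000328). Uqcrfs1, the Rieske iron-sulphur protein, rose by a log2 of 0.72 ± 0.13 and the core subunit Uqcrc1 by 0.59 ± 0.12. The second core subunit, Uqcrc2, was at 82.7, 79.5 and 81.8 CPM under PBS and at 95.0, 84.0 and 82.0 CPM under CRE and was not called (0.10 ± 0.08, adjusted p = 0.307). The CPM ratio of Uqcrc1 to Uqcrc2, which stand side by side in the complex, was 1.46 ± 0.06 in WT_PBS and 2.06 ± 0.08 in WT_CRE. The mitochondrially encoded cytochrome b of this complex, mt-Cytb, was at 2375, 2364 and 2232 CPM under PBS and 2267, 2018 and 2094 CPM under CRE (-0.13 ± 0.10, adjusted p = 0.281), and its groups overlapped.

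Complex IV held both the largest rise and the largest fall. Cox5a, a matrix-side subunit whose gene overlaps Gm26631 on the other strand, rose from 23.1, 26.4 and 22.7 CPM in WT_PBS to 67.7, 63.7 and 53.5 CPM in WT_CRE (1.36 ± 0.19, adjusted p = 0.000136). Cox5b, which carries zinc, rose from 70.1, 64.4 and 65.9 CPM to 132.0, 134.1 and 112.0 CPM (0.92 ± 0.17). Cox4i1, the widely used form of subunit 4, rose from 193.6, 212.7 and 197.6 CPM to 340.2, 357.3 and 318.9 CPM (0.75 ± 0.17). Cox7b rose by a log2 of 0.70 ± 0.13 and Cox6b1, on the side of the intermembrane space, by 0.85 ± 0.19. Cox7a2l, which helps to join complexes III and IV, had overlapping groups and was not called (0.12 ± 0.14, adjusted p = 0.459).

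The paralogues of complex IV moved apart. Cox8b, the muscle form of subunit 8, fell from 2.069, 1.61 and 2.001 CPM in WT_PBS to 0.441, 0.328 and 0.427 CPM in WT_CRE (-2.23 ± 0.41, adjusted p = 0.0008), while Cox8a rose from 90.1, 98.6 and 88.8 CPM to 182.9, 181.1 and 147.5 CPM (0.88 ± 0.14). Per kilobase of exon, Cox8b made up 3.42% ± 0.60 (SD, n = 3) of the pair in WT_PBS and 0.406% ± 0.093 in WT_CRE. Cox7a1, the muscle form of subunit 7a, was at 4.09, 2.06 and 3.89 CPM under PBS and at 1.89, 1.58 and 2.35 CPM under CRE (-0.78 ± 0.31, adjusted p = 0.0483). Its groups overlapped, and leaving out any of 7 of the 12 libraries raised its adjusted p to between 0.0553 and 0.163. The widely used form Cox7a2 rose by a log2 of 0.73 ± 0.15. Cox6a2, the muscle form of subunit 6a, fell from 9.39, 8.50 and 8.48 CPM to 6.68, 4.53 and 5.61 CPM (-0.65 ± 0.23, adjusted p = 0.0291), and the call ended without any of 5 libraries (adjusted p 0.0535 to 0.110). Its gene overlaps Itgad on the opposite strand. Cox6a1 rose by 0.58 ± 0.13. Ndufa4l2 fell from 30.1, 31.8 and 30.5 CPM to 22.94, 23.8 and 23.98 CPM (-0.39 ± 0.11, adjusted p = 0.01), whereas Ndufa4 rose by 0.36 ± 0.12, a call that ended without any of 4 libraries (adjusted p 0.0615 to 0.0802). Cox4i2, the lung form of subunit 4, was at 43.4, 42.5 and 43.4 CPM in WT_PBS and at 43.9, 31.5 and 37.2 CPM in WT_CRE and was not called (-0.20 ± 0.11, adjusted p = 0.141). Without WT_CRE replicate 1 it was called lower (-0.33, adjusted p = 0.0241). Per kilobase its share of subunit 4 transcripts was 29.7% ± 1.3 in WT_PBS and 17.9% ± 2.8 in WT_CRE. Cox6b2 was not called either (-0.35 ± 0.20, adjusted p = 0.159).

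**Figure D3:**
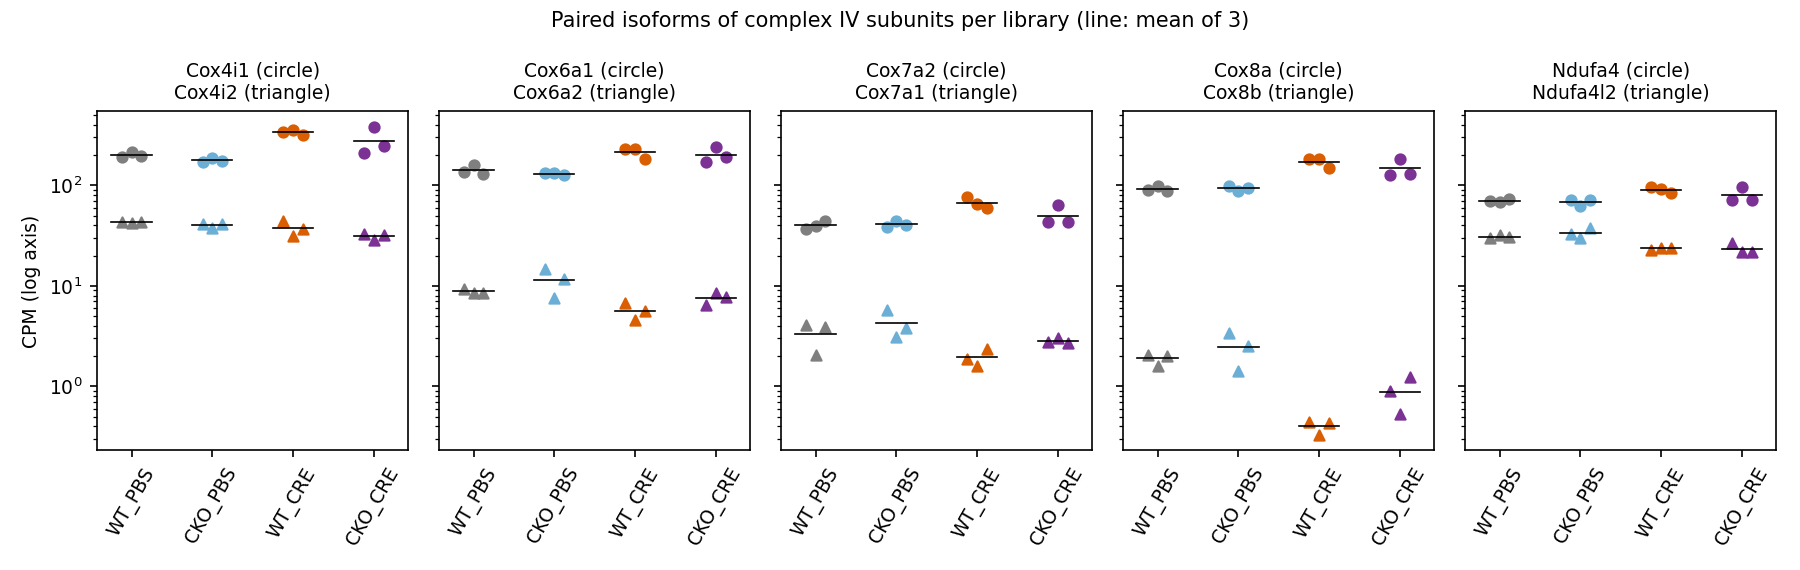
CPM on a log axis for 5 pairs of complex IV paralogues, with the group on the x axis. Circles are the widely used form and triangles the restricted form in each library, and lines are the mean of 3. In WT the circles of Cox8a, Cox7a2, Cox6a1 and Ndufa4 are higher under CRE while the triangles of Cox8b, Cox7a1, Cox6a2 and Ndufa4l2 are lower.

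The falls of the muscle-type forms stood beside a fall of cardiac muscle markers, which mouse lung holds around its pulmonary veins. The 12 cardiac markers (Myh6, Tnnt2, Actc1 and others) summed to 341 to 507 CPM in WT_PBS and 207 to 232 CPM in WT_CRE. In CKO they summed to 449 to 681 CPM under PBS and to 388, 238 and 444 CPM under CRE. Of these markers 9 fell in WT and 7 in CKO, and none rose, against 28.4% and 18.5% of all genes called lower. In CKO 4 fell when CKO_CRE replicate 2 was left out. The 8 skeletal muscle markers, of which 4 were tested, summed to at most 8.17 CPM in any library, and the 5 brown fat markers to at most 13.9 CPM. Pericytes are known to express Ndufa4l2 and Cox4i2, and the 8 pericyte markers summed to 517 to 522 CPM in WT_PBS and 325 to 441 CPM in WT_CRE. Of them 4 fell and 1, Rgs5, rose in WT (2.10 ± 0.34). In CKO they summed to 467 to 595 CPM under PBS and to 529, 350 and 445 CPM under CRE, and 2 fell and 2 rose. The part of these cells in the paralogue shifts was not tested.

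Complex V showed the highest median of the 5 complexes in WT, 0.83 over 17 nuclear members. The catalytic β subunit Atp5b was at 565, 553 and 538 CPM in WT_PBS and at 834, 790 and 764 CPM in WT_CRE (0.53 ± 0.10, adjusted p = 0.000992), and the α subunit Atp5a1 rose by a log2 of 0.61 ± 0.12. Atp5f1, which encodes the b subunit of the peripheral stalk, rose from 132.3, 132.1 and 139.7 CPM to 287.9, 287.8 and 266.7 CPM (1.06 ± 0.15). The small subunit gene Atp5mpl rose by 0.98 ± 0.17, from 21.7, 19.9 and 23.9 CPM to 46.5, 44.0 and 38.3 CPM. The genes Atp5g1, Atp5g2 and Atp5g3 encode the same mature ring subunit c, and all 3 rose, by 0.88 ± 0.16, 0.87 ± 0.15 and 0.96 ± 0.15. Atp5g3 was at 84.6, 83.6 and 85.9 CPM under PBS and at 177.7, 169.7 and 146.5 CPM under CRE. Atp5s, which is known as a coupling factor rather than a core subunit, was not called (-0.34 ± 0.17, adjusted p = 0.111).

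Among the mitochondrially encoded members, 7 were measured at 341.7 CPM or more in every library and 6 at 18.3 CPM or less. mt-Co1, the catalytic core of complex IV, was at 5955, 5970 and 5710 CPM in WT_PBS and at 6243, 5304 and 5834 CPM in WT_CRE (-0.02 ± 0.11, adjusted p = 0.88). mt-Nd1 was at 1388, 1298 and 1306 CPM under PBS and at 1493, 1499 and 1328 CPM under CRE (0.11 ± 0.10, adjusted p = 0.356). By contrast mt-Nd5 fell from 1948, 1987 and 1831 CPM to 1166, 1023 and 1254 CPM (-0.74 ± 0.16, adjusted p = 0.00209), and mt-Nd2 from 1174, 1105 and 1095 CPM to 865, 781 and 781 CPM (-0.47 ± 0.10, adjusted p = 0.00188). The CPM ratio of mt-Nd5 to mt-Nd1 was 1.45 ± 0.07 in WT_PBS, 1.38 ± 0.03 in CKO_PBS and 0.80 ± 0.13 in WT_CRE. In CKO_CRE it was 1.15, 0.63 and 1.13. limma-voom with quality weights called mt-Nd1 higher in WT (0.15, adjusted p = 0.04025) and lower in CKO (-0.18, adjusted p = 0.03997). Its weights for CKO_CRE were 0.519, 0.122 and 3.46, so the CKO value rests mostly on replicate 3. By edgeR mt-Nd1 was called in neither genotype. Mitochondrial transcripts of 1 strand are cut from 1 long precursor, and mt-Nd5 overlaps mt-Nd6 on the opposite strand.

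The 6 low mitochondrial members were mt-Nd3, mt-Nd4l, mt-Co2, mt-Co3, mt-Atp6 and mt-Atp8, whose transcripts are known to be abundant in most tissues. A run of nuclear pseudogenes on chromosome 1 (GRCm38, 24611535 to 24616197) is nearly identical to this stretch of mitochondrial DNA. Gm28661, the copy of mt-Co2, was at 13.5 to 22.8 CPM, against 10.5 to 18.3 CPM for mt-Co2 itself, and Gm28438, the copy of mt-Nd3, was at 10.2 to 21.7 CPM, against 0.353 to 1.52 CPM for mt-Nd3. For mt-Co1 the copy Gm29216 covers only a part of the gene and was at 6.84 to 16.7 CPM. The run also holds Gm28439, a copy of mt-Nd4, at 4.55 to 9.74 CPM, against 824 to 1115 CPM for mt-Nd4. How reads with several matching places were treated is not given in the sources used here. The values of these 6 low members and their part in the mitochondrial sum are therefore uncertain. Among them mt-Nd4l was called lower in WT (-1.02 ± 0.35, adjusted p = 0.024), from 2.07, 3.22 and 2.41 CPM to 1.20, 0.764 and 1.82 CPM, a call that ended without any of 3 libraries (adjusted p 0.0655 to 0.0973).

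In the CKO lung, CRE against PBS gave 55 members higher and 6 lower, all 55 of them nuclear and 3 of the 6 mitochondrially encoded. Over all tested genes 20.6% were called higher and 18.5% lower in this comparison. The median log2 fold change was 0.45 over the nuclear members, -0.24 over the mitochondrial members and 0.00 over all tested genes. Without CKO_CRE replicate 2 the nuclear median was 0.27 and the mitochondrial median -0.33. Risers numbered 25 of 35 in complex I, 2 of 4 in complex II, 6 of 8 in complex III, 8 of 18 in complex IV and 14 of 17 in complex V. Fitted on the 6 CKO libraries alone, 24 members were higher and 3 lower, against 12.9% and 10.1% of all genes tested there. The groups did not overlap for 57 members that were higher and 11 that were lower, as was so for 24.3% and 24.7% of all tested genes. Without CKO_CRE replicate 2 in the fit of all groups, 39 were higher and 6 lower, against 15.7% and 14.2% of all genes. With sex as a covariate 45 were higher and 7 lower, against 17.4% and 15.8% of all genes. Without CKO_PBS replicate 3, the count of higher members was 36.

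Cox5a had the largest rise among the called members in CKO, as it did in WT. It was at 20.9, 21.4 and 20.0 CPM in CKO_PBS and at 38.7, 68.1 and 40.1 CPM in CKO_CRE (1.24 ± 0.19, adjusted p = 0.000656). Uqcrq was at 53.9, 47.1 and 44.6 CPM under PBS and at 75.1, 117.9 and 74.5 CPM under CRE (0.88 ± 0.17). Cox5b (0.85 ± 0.17), Atp5g2 (0.85 ± 0.15) and Atp5f1 (0.71 ± 0.15) followed, and in each the second CRE replicate was the highest. Without that library the values were 0.92 for Cox5a, 0.63 for Uqcrq, 0.56 for Cox5b, 0.64 for Atp5g2 and 0.45 for Atp5f1, and all 5 were still called. Ndufs5 was called in CKO (0.71 ± 0.25, adjusted p = 0.0387) with overlapping groups, and leaving out any of 9 libraries ended the call (adjusted p 0.0510 to 0.162). Sdha was again not called (0.12 ± 0.08, adjusted p = 0.214) while Sdhb rose by 0.64 ± 0.13 (0.46 without CKO_CRE replicate 2). Sdhc (0.42 ± 0.16, adjusted p = 0.0568), Atp5a1 (0.30 ± 0.12, adjusted p = 0.0598) and Ndufv1 (0.18 ± 0.09, adjusted p = 0.146) were not called in CKO.

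The falls in CKO were also in complex IV paralogues and mitochondrial transcripts. Cox8b was at 3.36, 1.43 and 2.54 CPM in CKO_PBS and at 0.900, 0.525 and 1.23 CPM in CKO_CRE (-1.45 ± 0.37, adjusted p = 0.00986). Fitted on the 6 CKO libraries alone, the calls of Cox8b (adjusted p = 0.0521), mt-Nd5 (0.0666) and mt-Nd4 (0.0888) ended. Ndufa4l2 fell by 0.51 on the log2 scale and mt-Nd5 by 0.60. mt-Nd2 fell by 0.48, from 1103, 1019 and 1080 CPM to 855, 701 and 739 CPM. mt-Cytb was not called by edgeR but was called lower by DESeq2 (-0.24, adjusted p = 0.00516) and limma-voom (-0.27, adjusted p = 0.00516). Cox4i2 was called here (-0.37 ± 0.11, adjusted p = 0.0214), from 41.4, 37.8 and 41.3 CPM to 32.7, 28.4 and 32.1 CPM, but not without CKO_CRE replicate 2 (adjusted p = 0.0633) or without CKO_PBS replicate 1 (0.0638) or 3 (0.0681). mt-Nd4 fell from 1061, 1066 and 1065 CPM to 869, 868 and 824 CPM (-0.32 ± 0.09, adjusted p = 0.0166), a call that ended without CKO_PBS replicate 3 (0.0516) or CKO_CRE replicate 3 (0.0505). The muscle forms Cox6a2 (-0.57 ± 0.22, adjusted p = 0.062) and Cox7a1 (-0.58 ± 0.30, adjusted p = 0.145) were not called in CKO.

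Set side by side, 54 members were higher under CRE in both genotypes, 4 were lower in both and none was called in opposite directions by edgeR. limma-voom called mt-Nd1 higher in WT and lower in CKO, where its weights put CKO_CRE mostly on replicate 3. By edgeR 16 members were called higher in WT that were not called in CKO, and in CKO 1, Ndufs5. Without CKO_CRE replicate 2, 39 were higher in both, 4 lower in both, 32 higher in WT alone and 0 in CKO alone. Of all tested genes 28.6% were called higher in WT and 20.6% in CKO, or 15.7% in CKO without that library. The share of all genes called in both genotypes was not counted. These counts of the members' calls do not test the difference, which is given further on as an interaction. The log2 fold change was larger in WT than in CKO for 74 of the 82 nuclear members, and for 78 without that library. With all libraries it was larger in CKO for 8858 of all 17473 tested genes. Over those 82 members Pearson's r between the WT and the CKO values was 0.94 and Spearman's rho 0.79 (0.89 and 0.64 without it), which describes genes that share libraries and are not independent.

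**Figure D4:**
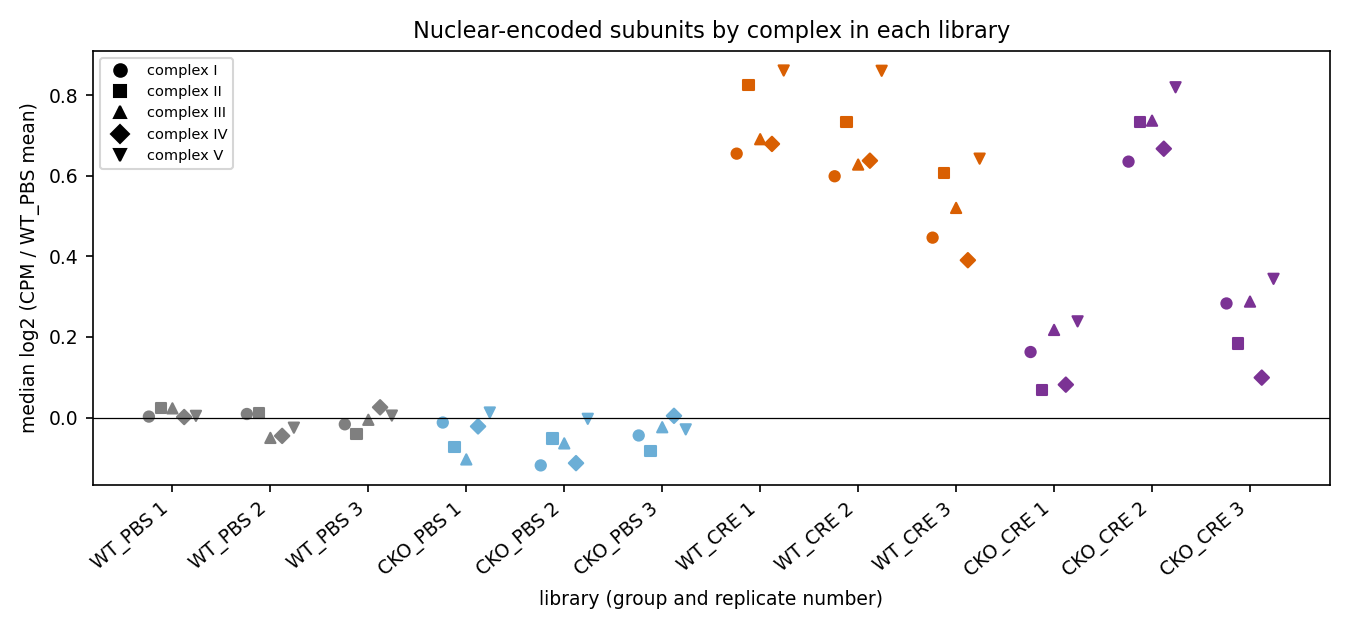
Median log2 of CPM over the WT_PBS mean for the nuclear members of each complex (y axis) in each library (x axis), with 1 symbol per complex and 1 colour per group. The WT_CRE libraries lie between 0.39 and 0.86. CKO_CRE replicate 2 lies between 0.64 and 0.82, and CKO_CRE replicates 1 and 3 between 0.07 and 0.35.

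Under PBS the genotypes were compared directly. edgeR called no member between CKO_PBS and WT_PBS, 0 had an unadjusted p under 0.05, and DESeq2 and limma-voom called 0. Of all tested genes edgeR called 0.0401% higher and 0.0687% lower, with 2.87% and 2.45% at the unadjusted p. DESeq2 called 0.315% and 0.338% of all genes and limma-voom 0.309% and 0.527%. The groups did not overlap for 4 members that were higher in CKO and 12 that were lower, where 7.65% and 7.53% of all genes did so. Log2 differences of all members ran from -0.49 (Ndufs5) to 0.59, the last for a mitochondrially encoded complex I gene. Over the nuclear members the largest was 0.36, with a median of -0.03 and a median SE of 0.14. Cox7a2l was at 133.8, 137.3 and 156.2 CPM in WT_PBS and at 110.6, 131.3 and 124.3 CPM in CKO_PBS (-0.22 ± 0.14), and Cox6a2 differed by 0.36 ± 0.22.

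Under CRE the genotype comparison turned on 1 library. edgeR called no member between CKO_CRE and WT_CRE, where 0.549% of all genes were called higher and 0.366% lower. At an unadjusted p under 0.05, 13 members were lower and 1 higher, against 7.49% and 11.0% of all genes. The groups did not overlap for 5 members that were lower and 3 that were higher, against 7.69% and 7.37%. Of the members' 95 log2 differences 88 were negative, with a median of -0.20. Over all tested genes 8960 of 17473 were positive, with a median of 0.01. The members share libraries, so their signs are not independent. DESeq2 called 3 members lower and 0 higher, and 1.72% and 3.07% of all genes. limma-voom with quality weights called 76 lower and 2 higher (20.8% and 23.0% of all genes). Its weights were 0.519, 0.122 and 3.46 for CKO_CRE replicates 1, 2 and 3, and 2.82, 0.736 and 0.541 for WT_CRE. They were estimated from these same libraries and put CKO_CRE mostly on replicate 3, so these calls are no separate test of the genotypes. Without CKO_CRE replicate 2 edgeR called 61 members lower, 58 of them nuclear, and 1 higher, where 12.7% and 15.8% of all genes were called, and the median of the 95 was -0.37. That library had the highest CKO_CRE value in 77 of 82 nuclear members and was at or above the lowest WT_CRE library in 79, which replicates 1 and 3 were in 8 and 15. Because it was picked out on these values, the calls and adjusted p-values without it do not test the genotypes. The median coefficient of variation of the nuclear members was 20.9% in CKO_CRE and 8.94% in WT_CRE, against 19.2% and 11.4% over all tested genes.

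Sdhd, the complex II anchor, had the smallest p of the members under CRE. Its WT_CRE libraries held 115.9, 106.7 and 97.5 CPM and its CKO_CRE libraries 68.8, 98.6 and 68.8 CPM (-0.44 ± 0.13, adjusted p = 0.126), and without CKO_CRE replicate 2 the difference was -0.63 (adjusted p = 0.000378). Ndufb5 was at 32.3, 45.8 and 35.8 CPM in CKO_CRE, each below the 46.3 to 52.9 CPM of WT_CRE (-0.39 ± 0.12, adjusted p = 0.148; -0.54 and 0.00223 without that library). mt-Nd6 was at 359.7, 427.8 and 341.7 CPM in CKO_CRE and 504.9, 443.9 and 447.9 CPM in WT_CRE (-0.31 ± 0.10, adjusted p = 0.152, and -0.41 and 0.00291 without that library). Its gene overlaps mt-Nd5 on the opposite strand, and whether strands were counted apart is not given. Atp5a1 differed by -0.22 ± 0.12 (-0.37 without CKO_CRE replicate 2), Atp5b by -0.17 ± 0.10 (-0.28) and Cox7a2 by -0.42 ± 0.15 (-0.63). Sdha differed by -0.07 ± 0.08 and was not called without that library either (-0.10, adjusted p = 0.333). Cox8b went the other way, with 0.900, 0.525 and 1.23 CPM in CKO_CRE all above the 0.328 to 0.441 CPM of WT_CRE (1.14 ± 0.44, adjusted p = 0.205), and it was the single member called higher without CKO_CRE replicate 2 (1.41, adjusted p = 0.0314). Sdhd, Cox5a, Cox7a2, Uqcrc1 and Atp5l lie on chromosome 9, which also carries Rhoa. Their log2 differences ran from -0.21 to 0.02 under PBS and from -0.44 to -0.19 under CRE.

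Whether CRE moved the members unequally in WT and CKO was tested as an interaction. edgeR called no member, with 1 at an unadjusted p under 0.05, Ndufb5 (-0.45 ± 0.17, adjusted p = 0.432). Over all tested genes 0.0343% were called higher and 0.0114% lower, with 6.03% and 4.29% at the unadjusted p. DESeq2 called 0 members, and 0.458% of all genes higher and 0.24% lower. limma-voom called 47 members lower and 0 higher, and 10.5% and 14.5% of all genes. It used the weights given above, so these calls are no separate test of the interaction. Without CKO_CRE replicate 2 edgeR called 28 members lower and 0 higher, and 6.11% and 8.72% of all genes. The members' median difference was -0.13, and -0.31 without that library, against 0.006 and 0.001 over all tested genes. Atp5a1 gave -0.31 ± 0.16, and -0.46 with an adjusted p of 0.0130 without it.

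CKO_CRE replicate 2 also stood apart in markers of immune cells. The 9 macrophage markers (Cd68, Csf1r, C1qa and others) summed to 1674, 3349 and 2109 CPM in CKO_CRE, 2783 to 3175 in WT_CRE and 632 to 771 in the 6 PBS libraries, and 8 of 9 rose in each genotype while 1 fell. The 6 leukocyte markers summed to 974, 1955 and 1318 CPM in CKO_CRE and to 1457 to 1771 in WT_CRE, and all 6 rose in both genotypes. The 10 cell cycle markers summed to 388, 711 and 441 CPM in CKO_CRE, 603 to 682 in WT_CRE and 100 to 159 in the PBS groups, and all 10 rose in both genotypes. Club cell markers summed to 8647 to 8892 CPM in WT_PBS and 1787 to 1946 in WT_CRE, and all 6 fell in both genotypes. Of the 7 ciliated cell markers tested all fell in WT and 1 in CKO, and the interaction called none of them. Without CKO_CRE replicate 2 the interaction called 5 ciliated, 4 club and 1 type 2 alveolar cell marker higher, against 8.72% of all genes. It then called 3 macrophage, 2 leukocyte and 3 cell cycle markers lower, against 6.11%. That library was picked out on values like these, so these counts do not test the genotypes. Of 7 type 2 alveolar cell markers 1 rose and 3 fell in each genotype, and of 5 red blood cell markers 1 rose in WT. Over all genes 28.4% were called lower in WT and 18.5% in CKO. In CKO 8 macrophage, 5 leukocyte and 10 cell cycle markers rose and 6 club cell markers fell when CKO_CRE replicate 2 was left out. The part of these cells in the members' levels was not tested.

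**Figure D5:**
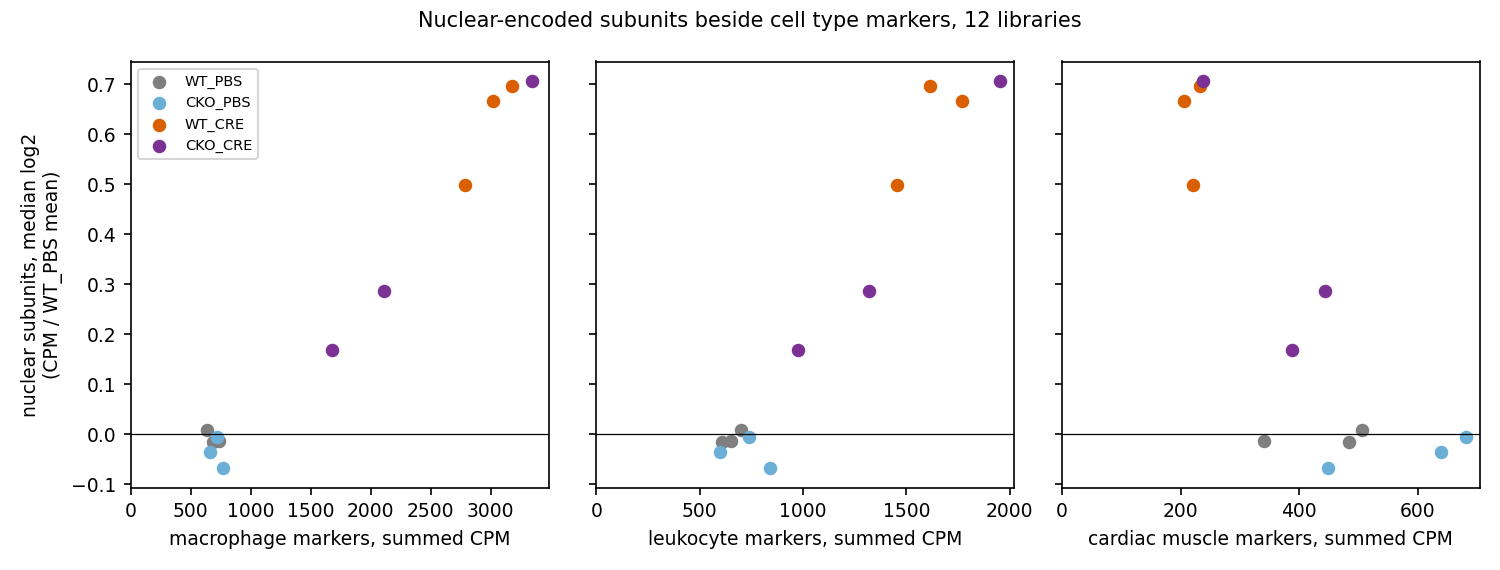
Median log2 of CPM over the WT_PBS mean for the nuclear members (y axis) beside the summed CPM of macrophage, leukocyte and cardiac muscle markers (x axes) in the 12 libraries, coloured by group. Every CRE library has more macrophage and leukocyte marker counts than every PBS library and lies higher. Among the PBS libraries, CKO_PBS replicate 2 has the most of both and the lowest median, -0.07. CKO_CRE replicate 2, at 3349 CPM of macrophage markers, lies at 0.71, beside the WT_CRE libraries.

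Related genes were counted from lists, and each count stands against the 28.6% of all genes called higher and 28.4% called lower in WT. In WT, of 8 carriers and subunits that the naming rule does not reach, 6 rose and none fell, with Cycs, which encodes cytochrome c (0.93 ± 0.12), and the ADP/ATP carrier Slc25a5 (0.84 ± 0.12) rising most. Assembly factors rose in 6 of 16 for complex I (Ndufaf5 0.71, Foxred1 0.52), with Nubpl falling by 0.42, in 2 of 10 for complexes II and III (Sdhaf1 1.16, Uqcc2 0.77) and in 9 of 18 for complex IV (Pet100 0.86, Cox18 0.75). Of 13 citric acid cycle enzymes 7 rose, led by Mdh2 (0.92) and citrate synthase Cs (0.66), and Suclg2 fell by 0.44. Fatty acid oxidation was split, with 3 of 14 higher and 4 lower, among them Cpt1a, the entry step of long-chain acyl groups (-1.10). Of 18 glycolysis genes 16 rose, led by the leukocyte hexokinase Hk3 (3.67) and Eno1 (1.62), and Pfkfb3 (-1.12) and Pfkm (-0.55) fell. In CKO the same lists gave 4 of 8 higher for the carriers, 3 of 16, 3 of 10 and 4 of 18 for the assembly factors, 4 of 13 for the citric acid cycle, 2 higher and 2 lower of 14 for fatty acid oxidation, and 16 higher and 2 lower of 18 for glycolysis, where 20.6% of all genes were called higher and 18.5% lower. No test sets the list counts apart from these shares. The CKO counts of higher genes without CKO_CRE replicate 2 were 3 of 8 for the carriers, 1 of 16, 2 of 10 and 2 of 18 for the assembly factors, 4 of 13 for the citric acid cycle, 1 of 14 for fatty acid oxidation and 13 of 18 for glycolysis.

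Of 16 regulators of mitochondrial biogenesis 5 were higher and 5 lower in WT, which is near the 28.6% and 28.4% of all genes. The coactivator Ppargc1a fell from 6.26, 7.35 and 6.89 CPM to 3.65, 3.28 and 4.49 CPM (-0.84 ± 0.18, adjusted p = 0.00195). Its relative Ppargc1b rose from 1.77, 2.47 and 1.24 CPM to 3.97, 3.60 and 4.65 CPM (1.15 ± 0.24, adjusted p = 0.00179). The nuclear receptor gene Esrra rose by 0.73 ± 0.11 and Esrrg fell by 1.56 on the log2 scale. Of the genes of the factors whose motifs were sought, named after their values were seen, Gabpa fell in WT (-0.52 ± 0.08, adjusted p = 0.000281) and in CKO (-0.38 ± 0.08, adjusted p = 0.00428). Nrf1 was not called in WT (-0.08 ± 0.08) and fell in CKO (-0.23 ± 0.08, adjusted p = 0.0483). In CKO 3 regulators were higher and 5 lower (2 and 4 without CKO_CRE replicate 2), with Ppargc1a at -0.80 ± 0.18, Ppargc1b at 1.20 ± 0.24, Esrra at 0.62 ± 0.11 and Esrrg at -1.67 ± 0.45. No gene of these lists was called between the genotypes under PBS, and under CRE 1 was, Cpt1a, higher in CKO by 0.64 ± 0.12 (adjusted p = 0.0284). Without CKO_CRE replicate 2, 10 of 18 glycolysis genes were called lower and 1 higher under CRE. Also lower were 4 of 8 carriers and 3 of 13 citric acid cycle enzymes. Of assembly factors 3 of 16 for complex I and 2 of 18 for complex IV were lower, as was 1 regulator. Of fatty acid oxidation genes 1 was higher. Of all genes 12.7% were lower and 15.8% higher. That library was picked out on such values, so these counts do not test the genotypes.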

How the data were processed

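Lung RNA of 12 libraries was extracted with RNeasy columns, enriched with oligo-dT beads and made into libraries with the NEBNext Ultra RNA kit, per the labels' protocols. Reads were trimmed with fastp and aligned with STAR to mm10, per the submitters' processing notes; their versions and the counting step (tool, annotation, strand, multi-mapping reads) were not given in the sources used here. The deposited file holds whole-number read counts per Ensembl gene, made by the authors and not normalized. Symbols, positions and exon lengths were taken from GENCODE M21 (GRCm38), where 54409 of 54532 identifiers matched, and 22229 had no count. Counts were fitted with edgeR 4.0.16 in R 4.3.3 (filterByExpr, TMM, 1 mean per group over 12 libraries, quasi-likelihood F test, Benjamini-Hochberg over 17473 genes, threshold 0.05), with limma 3.58.1 and DESeq2 1.42.0 as alternatives. The common biological coefficient of variation was 17.4%. The fit was tested on simulated counts. Near-identical copies came from blastn 2.17.0. CPM per kilobase used the summed exon length of a gene.

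Groups came from the sample titles, and the labels give all samples batch 1. Named members were the 6 called rises and 6 called falls of largest log2 fold change in a comparison, or the 3 of smallest p where none was called, plus core subunits and paralogue sets, and, from each list of related genes, at most 2 called genes in each direction. Ndufb5, Ndufs5, Ndufb2, Uqcrc2, Cox5b and Atp5s in WT were named after their values were seen. One core subunit covered by this rule is not reported here. Library sex was read from Y-linked and Xist counts. The members and lists were chosen with earlier results of these data known. Alternatives were other size factors, DESeq2, limma-voom with quality weights, no low-count filter, mitochondrial genes left out of library sizes, the replicate number as a block, sex as a covariate, a fit on the compared groups alone, and each library left out.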

Additional observations from a re-analysis of the deposited data

How the results depend on the processing

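Leaving out each library in turn gave 63 to 71 members higher and 4 to 7 lower for CRE in WT, and 36 to 65 higher and 4 to 7 lower in CKO. The 4 in WT came without WT_CRE replicate 2 and the 36 without CKO_PBS replicate 3. Over all genes, 17890 to 18004 tested, these fits called 4241 to 5424 higher and 4210 to 5445 lower in WT. In CKO they called 2601 to 4119 of all genes higher and 2167 to 3659 lower. Between genotypes the members called ranged from 0 to 0 in both directions under PBS. Under CRE they ranged from 0 to 61 lower and 0 to 1 higher. For the difference of responses they ranged from 0 to 28 lower and 0 to 0 higher. The 61, 1 and 28 all came without CKO_CRE replicate 2. Without it 12.7% of all genes were lower and 15.8% higher under CRE, and 6.11% lower and 8.72% higher for the difference. Sex as a covariate gave 65 members higher and 4 lower in WT, against 22.9% and 22.5% of all genes. The calls of Cox6a2 (adjusted p = 0.155), Cox7a1 (0.176), mt-Nd4l (0.0656) and Ndufa4l2 (0.0778) then ended. Fitting only the compared groups gave 24 higher and 3 lower in CKO, against 12.9% and 10.1% of all genes. limma-voom gave 13 members lower in CKO, where 3912 of all 17473 genes were lower. Between genotypes under CRE it gave 76 lower and 2 higher (20.8% and 23.0% of all genes), and 47 lower for the difference (10.5%). Its weights were estimated from these same libraries and put CKO_CRE mostly on replicate 3. DESeq2 gave 3 lower under CRE (1.72%). The cause of these changes was not tested.

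Among the log2 values of the named members, the signs that turned were of values near 0 that were not called. mt-Co1 in WT was 0.035 with limma-voom, and leaving out each library gave -0.0812 to 0.0378, the last without WT_CRE replicate 2. In CKO, leaving out each library gave -0.0412 (without CKO_PBS replicate 3) to 0.276 for Cox6b2 and -0.177 to 0.0769 (without CKO_CRE replicate 1) for Cox7a2l.

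The replicate numbers were not shown to pair the libraries: deviations of libraries with the same number correlated between -0.0334 and 0.176. With the replicate number as a block, 70 members were higher and 7 lower in WT, 54 higher and 7 lower in CKO, and 0 in either direction between genotypes and for the difference. Of all 17473 genes the block gave 4947 higher and 4974 lower in WT, and 3582 and 3417 in CKO. DESeq2's size factors, and leaving the mitochondrial genes out of library sizes, moved no count of members. Leaving out the low-count filter gave 71 members higher and 6 lower in WT and 59 higher and 5 lower in CKO. Of the 32303 genes then tested, 4829 were higher and 4558 lower in WT, and 3530 and 2774 in CKO. Members near 1 CPM, such as Cox8b under CRE, rest on few counts.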
